A study of Mus musculus with 23 samples.

Results

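The 8 genes described here are switched on or raised in thymocytes when the T-cell receptor (TCR) is engaged, and were followed through 23 mouse RNA-sequencing libraries: Nr4a1, Nr4a3, Egr1, Egr2, Egr3, Cd5, Cd69 and Cd6. They were taken by gene symbol from the 24475 genes of the deposited table, and all 8 were listed and passed the filter on low values. The question was how strongly these genes are expressed in T-cell acute lymphoblastic leukemia (T-ALL) compared with normal thymus. A further question was whether their level depends on Notch3.

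There were 3 groups. The 6 thymus controls came from normal C57BL/6 mice. The 14 WT T-ALL libraries came from spleens of leukemic BALB/c Rag2-/-Il2rg-/- mice that had received a wild-type newborn thymus under the kidney capsule, and by the study's methods those donors were B6.Ly5.1 mice. The 3 Notch3 KO T-ALL libraries came from spleens of the same kind of host grafted with a Notch3 knockout thymus, in which β-galactosidase was inserted in frame into the first coding exon. Hosts of both T-ALL groups thus lacked Rag2 and Il2rg, while no deletion is given for the controls. The labels gave no age. Each T-ALL library was a separate leukemia, and no leukemia-free graft or spleen was among the libraries, so tissue, host strain and disease cannot be told apart in the comparisons with thymus. A spleen keeps host erythroid, myeloid and stromal cells beside the leukemic cells, no sort of cells before RNA extraction is given in the sources used here, and in bulk RNA fewer cells of a type and less RNA per cell cannot be told apart.

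In the thymus, thymocytes are selected by how strongly their TCR binds self peptide on MHC. A signal through the TCR, Ras, ERK and calcium induces within a short time the transcription factors of the EGR and NR4A families, and then raises surface proteins such as CD69. Nr4a1 encodes NUR77, an orphan nuclear receptor used as a reporter of TCR signal strength, and Nr4a3 encodes its relative NOR1. Egr1, Egr2 and Egr3 encode zinc finger factors needed for normal positive selection. CD5 and CD6 are related scavenger receptor proteins of the T-cell surface, of which CD5 is set by TCR signal strength and dampens TCR signaling. CD69 is a lectin-like activation marker that keeps thymocytes in the thymus by acting against the egress receptor S1PR1. Pre-TCR signaling also induces several of these genes.

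On assembly GRCm38.p6, Nr4a1 lies on chromosome 15 (101253902 to 101274795), Nr4a3 on 4 (48045078 to 48086447), Egr2 on 10 (67534469 to 67542188), Egr3 on 14 (70077317 to 70082613) and Cd69 on 6 (129267324 to 129275375). Cd5 and Cd6 lie close to each other on chromosome 19 (10718107 to 10739026 and 10789339 to 10830062). Reference promoter windows of 300 bases from RefSeq (GRCm38.p6), running from 250 bases before a start site to 50 after it, were at hand for 4 members, Nr4a1, Nr4a3, Egr2 and Cd5. They are shown because the induced factors are known for sites of CREB and of serum response factor near their starts. In the first 3 windows, capitals mark the TGACG core of the cyclic AMP response element on either strand, the CArG box bound by serum response factor, and the EGR site GCGNGGGCG. In the Cd5 window, capitals mark the ETS core GGAAG and the E-box CANNTG.
Nr4a1, chr15:101266596-101266895, plus strand: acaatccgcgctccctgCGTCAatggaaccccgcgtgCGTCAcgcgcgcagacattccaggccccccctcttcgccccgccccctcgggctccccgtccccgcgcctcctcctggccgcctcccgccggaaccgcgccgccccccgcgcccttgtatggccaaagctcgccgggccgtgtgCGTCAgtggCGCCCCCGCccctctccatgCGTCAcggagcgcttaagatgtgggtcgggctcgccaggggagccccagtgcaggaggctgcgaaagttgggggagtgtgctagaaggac
Nr4a3, chr4:48045055-48045354, plus strand: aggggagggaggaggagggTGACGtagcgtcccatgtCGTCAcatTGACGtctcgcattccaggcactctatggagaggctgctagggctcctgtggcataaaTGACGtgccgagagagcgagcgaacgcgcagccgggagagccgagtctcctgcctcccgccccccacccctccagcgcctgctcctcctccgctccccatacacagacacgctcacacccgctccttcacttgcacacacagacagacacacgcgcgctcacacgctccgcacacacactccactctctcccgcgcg
Egr2, chr10:67537619-67537918, plus strand: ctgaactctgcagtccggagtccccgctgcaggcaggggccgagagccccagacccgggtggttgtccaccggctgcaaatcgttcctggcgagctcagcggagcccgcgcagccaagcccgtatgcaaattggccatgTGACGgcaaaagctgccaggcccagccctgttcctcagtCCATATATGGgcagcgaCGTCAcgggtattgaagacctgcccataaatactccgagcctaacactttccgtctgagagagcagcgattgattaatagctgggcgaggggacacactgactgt
Cd5, chr19:10738925-10739224, minus strand: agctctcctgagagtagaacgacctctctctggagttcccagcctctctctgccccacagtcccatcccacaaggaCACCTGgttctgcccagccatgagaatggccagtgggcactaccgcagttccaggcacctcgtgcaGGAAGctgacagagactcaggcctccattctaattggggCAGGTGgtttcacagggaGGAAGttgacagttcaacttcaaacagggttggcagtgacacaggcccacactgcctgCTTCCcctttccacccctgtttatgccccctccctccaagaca

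The TGACG core occurred 4 times in the Nr4a1 window, 4 times in the Nr4a3 window and 2 times in the Egr2 window, and did not occur in the Cd5 window. It was found in 20.8% of 32841 mouse promoter windows of the same length, with chromosome 18 left out. The Egr2 window, chosen among 5 as the one at the start of the longest annotated transcript, held a CArG box between its cores, a motif found in 1.63% of windows. The Nr4a1 window held 1 EGR site, found in 5.55% of windows. The Cd5 window held 3 ETS cores and 2 E-boxes, which are common letters (71.4% and 72.3% of windows). None of these windows held the complete cyclic AMP response element TGACGTCA (1.79% of windows) or the NR4A site AAAGGTCA (1.51%). Matches describe letters and not sites in use.

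Before the members are described, some facts about all libraries bear on them. Values are log2(scaled RPKM + 1), in which the reads per kilobase of each library were scaled to one 75th percentile, so that a value of 0 is no read and 1 is a scaled RPKM of 1. Sequencing depth, read from the steps between low values as a share of that of the deepest library, was between 0.171 and 0.617 for thymus, 0.172 and 1.0 for WT T-ALL, and 0.441 and 0.522 for Notch3 KO T-ALL. The libraries also fell into sets A and B by the mean level of 4 genes picked after their values were seen (at least 4.09 against at most 2.85). Set A held thymus 5 and 6, WT T-ALL 3, 4, 5 and 7 and the 3 Notch3 KO T-ALL libraries, and neither set is named in the labels. The mean log2 level of 6 T lineage markers was between 8.11 and 8.44 for thymus, 7.14 and 8.43 for WT T-ALL, and 7.32 and 7.89 for Notch3 KO T-ALL, while that of 9 erythroid markers was 0.22 to 0.46, 2.67 to 6.07 and 5.11 to 7.17 in the same order. Notch3 itself lay between 2.62 and 4.29 for thymus and between 3.17 and 5.78 for WT T-ALL, and at 3.22, 2.59 and 3.74 for Notch3 KO T-ALL 1, 2 and 3. Notch3 reads were thus still present in the Notch3 KO T-ALL libraries. From which cells or which part of the gene they came was not tested, so this level does not check the label.

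In thymus the members covered a wide range of levels. Per length, Cd5 was the most abundant (mean scaled RPKM 96.9 ± 9.0, SD, n = 6), followed by Cd6 (79.0 ± 4.0), Cd69 (40.2 ± 6.9), Egr1 (37.4 ± 9.0) and Nr4a1 (24.3 ± 4.7). Egr2 (8.91 ± 2.09), Nr4a3 (4.14 ± 1.02) and Egr3 (4.07 ± 0.81) were lower. The plot of all libraries by group gives the members' levels.

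**Figure D1:**
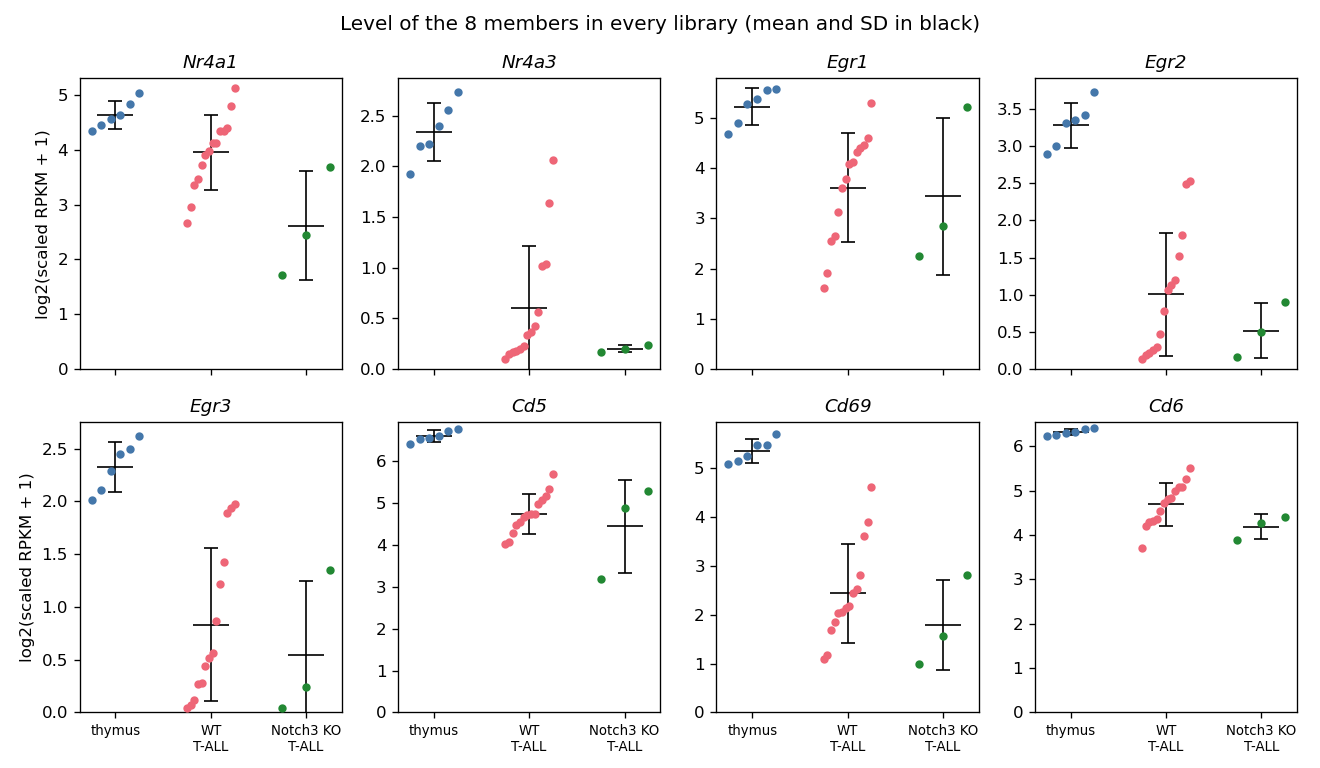
Level of each member in every library, as log2(scaled RPKM + 1) on the vertical axis, for thymus (6, blue), WT T-ALL (14, red) and Notch3 KO T-ALL (3, green), with points in order of value within a group and the mean and SD in black. Egr2, Egr3, Cd5, Cd69 and Cd6 were lower in all 14 WT T-ALL libraries than in any thymus library, while Nr4a1 overlapped in 5 and Nr4a3 and Egr1 in 1 (WT T-ALL 5).

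Transcripts of most members were lower in WT T-ALL than in thymus. In the limma fit across all genes, 7 of the 8 members were called lower in WT T-ALL (Benjamini-Hochberg adjusted p under 0.05) and 0 higher. Over all 11919 genes tested, 51.6% were called in this comparison and 22.3% were called lower. The members' median log2 change was -1.68, beside 0.08 over all genes tested, and 7 members fell by 1 or more on the log2 scale, beside 7.21% of all genes. For 5 members (Egr2, Egr3, Cd5, Cd69 and Cd6) every WT T-ALL library was below every thymus library, which was so for 6.64% of all genes tested. The remaining 3 were Nr4a1, Nr4a3 and Egr1.

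Among the NR4A receptors, Nr4a1 and Nr4a3 stood far apart. Nr4a1 ran from 4.34 over a median of 4.59 to 5.04 in thymus and from 2.66 over 4.05 to 5.13 in WT T-ALL. In 5 of the 14 leukemias (WT T-ALL 5, 48, 120, 126 and 128) Nr4a1 reached the thymus range, and WT T-ALL 126 was above it. The log2 change of -0.69 (SE 0.29) had an adjusted p of 0.0533 by limma and is not called. Nr4a1 was under the threshold in the fit of these 2 groups alone, with genes filtered at a scaled RPKM of 5, and without any 1 of WT T-ALL 5, 48, 120 and 126 or Notch3 KO T-ALL 1 and 2, and its adjusted p ran from 0.0224 to 0.69 over the alternatives. Nr4a3 ran from 1.92 over 2.31 to 2.73 in thymus and from 0.10 over 0.35 to 2.06 in WT T-ALL. Its mean scaled RPKM in WT T-ALL was 16.4% of that in thymus, against 66.2% for Nr4a1, and its log2 change was -1.73 (SE 0.24, adjusted p = 4.76e-06 by limma). Only WT T-ALL 5 overlapped the thymus range of Nr4a3, and WT T-ALL 126 came next at 1.64. The third family member, Nr4a2, was low throughout (0.46 to 0.82 in thymus and 0.04 to 1.49 in WT T-ALL) and did not pass the filter on low values.

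The 3 EGR factors were called lower, Egr1 less firmly than the others. Egr1, on chromosome 18 (34861207 to 34864956) and the most abundant of them, ran from 4.68 over 5.33 to 5.57 in thymus and from 1.62 over 3.94 to 5.30 in WT T-ALL, a log2 change of -1.62 (SE 0.47, adjusted p = 0.00604 by limma). It varied widely among leukemias, from a scaled RPKM of 2.07 in WT T-ALL 7 to 38.3 in WT T-ALL 5, and only that last library reached the thymus range. Its call was lost with the thymus libraries averaged in their 3 like pairs (adjusted p = 0.0626 by limma), with the macrophage or erythroid score as a covariate (0.114 and 0.745) and within library set A (0.298). Egr2 ran from 2.89 over 3.33 to 3.73 in thymus and from 0.14 over 0.93 to 2.53 in WT T-ALL. No WT T-ALL library reached the thymus range of Egr2, the log2 change was -2.28 (SE 0.32, adjusted p = 4.68e-06), and the mean scaled RPKM was 15.4% of thymus. WT T-ALL 126 and 110 held the most Egr2 (2.53 and 2.49), and WT T-ALL 128, 111 and 7 the least (0.14, 0.19 and 0.22). Egr3 ran from 2.01 over 2.37 to 2.62 in thymus and from 0.04 over 0.54 to 1.98 in WT T-ALL, with a log2 change of -1.50 (SE 0.30, adjusted p = 0.000231) and a mean scaled RPKM of 24.9% of thymus. Its 3 highest leukemias, WT T-ALL 126, 48 and 5, lay just under the thymus range at 1.98, 1.93 and 1.89. The lowest values rest on few reads. The steps between values give about 1 read of Egr3 in WT T-ALL 4 and 5 reads of Egr2 in WT T-ALL 7, so differences among the leukemias at the bottom of these ranges are not resolved at this depth. Egr4 was listed near 0 in every group (at most 0.52).

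The surface proteins fell as well, and on the deposited scale with its offset of 1 Cd69 changed the most of all members. With an offset of 0.1 Egr2 changed more than Cd69 (-3.36 against -3.22), and with 0.01 both Egr2 (-3.63) and Nr4a3 (-3.50) did (Cd69 -3.26). Cd69 ran from 5.08 over 5.35 to 5.70 in thymus and from 1.08 over 2.16 to 4.61 in WT T-ALL. The log2 change was -2.91 (SE 0.40, adjusted p = 3.28e-06 by limma), and 0.361% of the genes tested changed by as much or more in that direction. The mean scaled RPKM was 6.00 ± 6.19 (SD, n = 14) in WT T-ALL, or 14.9% of thymus. WT T-ALL 48 held the most Cd69 at 4.61, followed by WT T-ALL 110 at 3.90 and WT T-ALL 5 at 3.61, and each of the others was at 2.81 or below. Cd5 ran from 6.41 over 6.59 to 6.77 in thymus and from 4.03 over 4.72 to 5.70 in WT T-ALL, with a log2 change of -1.86 (SE 0.24, adjusted p = 1.70e-06). Cd6 ran from 6.24 over 6.31 to 6.42 in thymus and from 3.71 over 4.77 to 5.50 in WT T-ALL, with a log2 change of -1.62 (SE 0.19, adjusted p = 3.84e-07). No leukemia came near the thymus range of either gene. Even so, both stayed well expressed, with a mean scaled RPKM of 27.4 ± 9.8 for Cd5 and 26.3 ± 8.8 for Cd6 (SD, n = 14), or 28.3% and 33.3% of thymus.

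Host cell markers also differed between these groups. In the same fit, 9 of 9 erythroid markers, 9 of 10 macrophage markers and 10 of 10 neutrophil markers were called higher in WT T-ALL than in thymus, and 2 of 6 T lineage markers (Cd247 and Lck) were called lower. Of the B cell markers 4 of 5 tested were called lower and of the megakaryocyte markers 6 of 6 higher, and the summed scaled RPKM of the thymic epithelium markers was 3.82 to 6.41 in thymus and 0.0215 to 3.32 in WT T-ALL. The summed scaled RPKM of the erythroid list was 2.10 to 5.49 in thymus and 52.4 to 815.4 in WT T-ALL, and no marker was at 0 throughout either group. With the erythroid score as a covariate, 0 of 8 members (and 432 of all 11919 genes) were called, and the change of Nr4a1 turned to 0.79 (adjusted p = 0.526). The erythroid score does not overlap between thymus and T-ALL. Over the 14 WT T-ALL libraries, r of the members with this score ran from -0.37 (Nr4a1) to 0.11 (Egr2), and 0 passed adjustment by permutation tests. The part of the score in the members' difference was not tested beyond this. Scaled to the T lineage markers, the median of all genes moved to 0.57. On that scale the members changed by -0.20 (Nr4a1, adjusted p = 0.604 by limma) to -2.42 (Cd69), and 7 were called. Taken relative to the median of all genes on each scale, the scaled and unscaled changes are the same by construction. That scaling also moved the share of all called genes that were higher from 56.8% to 90.1%. Within library set B (4 thymus and 10 WT T-ALL libraries) 7 members were called, and within set A (2 and 4 libraries) 4 were called (Egr2, Cd5, Cd69 and Cd6), while each of the 8 changes was negative in both sets.

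Notch3 KO T-ALL showed the same direction against thymus, and all 8 members were called lower by limma. Of all 11919 genes, 37.5% were called in this comparison and 16.3% were called lower. The members' median log2 change was -2.13, beside 0.08 over all genes tested, and all 8 fell by 1 or more on the log2 scale, beside 8.99% of all genes. For 7 members, all but Egr1, the 3 Notch3 KO T-ALL libraries lay below every thymus library, which was so for 18.4% of all genes. This comparison shares its thymus libraries with the one above, so both sets of changes are not independent of each other. The plot of log2 changes sets the 3 comparisons side by side.

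**Figure D2:**
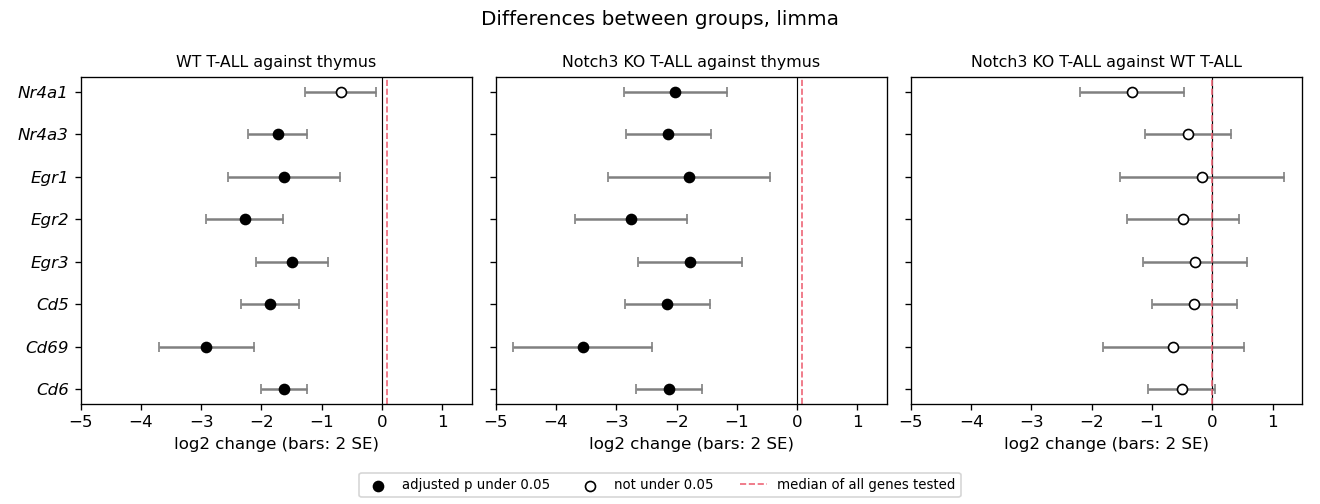
Log2 change of each member (points) with 2 standard errors on either side (bars) in the 3 comparisons, from limma. Filled points have an adjusted p under 0.05, and the dashed line is the median change of all genes tested. Against thymus, 7 and 8 of the 8 points are filled and all lie left of 0, while between the T-ALL groups all are open.

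Nr4a1 was at 3.69, 1.72 and 2.45 in Notch3 KO T-ALL 1, 2 and 3, all below the lowest thymus value, and its log2 change against thymus was -2.02 (SE 0.43, adjusted p = 0.000797 by limma). Nr4a3 was at 0.23, 0.17 and 0.20, with a change of -2.13 (SE 0.35, adjusted p = 7.68e-05). At these levels its mean scaled RPKM was 3.64% of thymus, and the estimated reads were 18 to 26 a library. The offset of 1 weighs on such low values: with an offset of 0.01 the change was -4.67 for Nr4a3, -4.58 for Egr2 and -4.11 for Egr3, all still called. Egr1 was at 5.21, 2.26 and 2.84, so that Notch3 KO T-ALL 1 lay inside the thymus range and the other 2 far below it. The change of Egr1, -1.79 (SE 0.67, adjusted p = 0.0397 by limma), lost its call by the exact permutation test (adjusted p = 0.0733) and when any 1 of thymus 2, 4, 5 and 6 or Notch3 KO T-ALL 2 and 3 was left out (log2 changes of -1.20 to -2.68 over all libraries left out). In all, this call was lost in 15 of 39 alternatives, among them no filter, the neutrophil score as a covariate and thymus pairs averaged. Egr2 was at 0.90, 0.17 and 0.49, with a change of -2.76 (SE 0.46, adjusted p = 8.86e-05). Egr3 was at 1.35, 0.05 and 0.24, with a change of -1.78 (SE 0.43, adjusted p = 0.00238).

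Cd5 was at 5.29, 3.19 and 4.89, with a change of -2.15 (SE 0.35, adjusted p = 6.22e-05 by limma). Cd69 was at 2.81, 1.00 and 1.56, with a change of -3.56 (SE 0.57, adjusted p = 6.11e-05), and 0.143% of all genes tested fell as far. Cd6 was at 3.88, 4.28 and 4.42, with a change of -2.13 (SE 0.28, adjusted p = 4.33e-06). Notch3 KO T-ALL 1 was the highest of the 3 for every member except Cd6, of which it held the least, and Notch3 KO T-ALL 2 was the lowest for every member except Cd6. Notch3 KO T-ALL 2 also had the lowest T lineage level of these 3 (7.32, against 7.80 and 7.89) and the highest erythroid level (7.17, against 5.11 and 6.55), and the part of this in the order of the libraries was not tested. All 9 erythroid and all 10 macrophage markers were called higher than in thymus, as were 6 of 6 megakaryocyte, 3 of 10 neutrophil and 3 of 4 tested endothelial and stroma markers, while 4 of 5 tested B cell markers were called lower. The erythroid sums were 428.5 to 2147 in scaled RPKM, and those of the thymic epithelium markers 0.215 to 3.80, beside 3.82 to 6.41 in thymus. Of this list, Foxn1, Psmb11 and Krt5 were at 0 in all 3 libraries, but in thymus they were at most 0.37 on the log2 scale. Epcam reached 2.24, inside its thymus range of 2.16 to 2.43. With the erythroid score as a covariate 0 members and 29 of all genes were called, and with the macrophage score 5 members (Nr4a3, Egr2, Cd5, Cd69 and Cd6). Within library set A, 6 were called, all but Egr1 and Egr3. Scaled to the T lineage markers, 7 were called, all but Egr1, and the share of all called genes that were higher moved from 56.5% to 93.7%, with the median of all genes at 0.69.

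Between the T-ALL groups, no member was called. By limma on the 17 T-ALL libraries, 0 of 8 passed at an adjusted p under 0.05 and 1 of 8 (Nr4a1) had an unadjusted p under 0.05. The exact permutation test over all genes also called 0 of 8. Over the 11677 genes tested, 0.617% were called, 0.0257% were called lower and 8.51% had an unadjusted p under 0.05, with 2.21% also lower. All 8 changes were negative, with a median of -0.44, and 1 was of -1 or beyond, beside 0.831% of all genes. Nr4a1 had the largest, -1.33 (SE 0.43, p = 0.00577, adjusted p = 0.192 by limma, exact permutation p = 0.0118). Notch3 KO T-ALL 2 and 3 were below all 14 WT T-ALL libraries for Nr4a1, and Notch3 KO T-ALL 1 lay inside their range. Without Notch3 KO T-ALL 1 the change of Nr4a1 was -1.87 with an adjusted p of 0.0468, the only call of a member in this comparison. Without Notch3 KO T-ALL 2 the change was -0.88 (adjusted p = 0.867), with the erythroid score as a covariate it was -0.58, and over the alternatives its adjusted p ran from 0.0468 to 1.00.

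For the other 7 members the differences were not resolved with 3 libraries. The interval of 2 SE on either side ran from -1.53 to 1.19 for Egr1, from -1.42 to 0.44 for Egr2, from -1.15 to 0.58 for Egr3 and from -1.11 to 0.31 for Nr4a3. It ran from -1.01 to 0.41 for Cd5, from -1.81 to 0.52 for Cd69 and from -1.07 to 0.05 for Cd6. Falls of 1 or more on the log2 scale therefore lay inside the interval of each. The erythroid markers were higher in Notch3 KO T-ALL at an unadjusted p under 0.05 for 9 of 9, the megakaryocyte markers for 6 of 6 and the macrophage markers for 4 of 10, none after adjustment, and their part in these differences was not tested. All Notch3 KO T-ALL libraries were in set A, where the 4 WT T-ALL libraries gave 0 calls over the 5 members that could be tested and a change of -1.58 for Nr4a1 (adjusted p = 0.199).

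The leukemias differed among themselves in the levels of the members. In 14 WT T-ALL libraries, WT T-ALL 5 was among the 4 highest for all 8 members, WT T-ALL 48 for 6 and WT T-ALL 126 for 5. WT T-ALL 126 was first for Nr4a1, Egr2 and Egr3 and second for Nr4a3 and Egr1, but only ninth for Cd5 and Cd69. WT T-ALL 120 likewise had Nr4a1, Nr4a3 and Egr3 at ranks 3, 4 and 4 with low Cd5, Cd69 and Cd6 (rank 12 each). WT T-ALL 36 was second for Cd5 and first for Cd6 but between ranks 7 and 14 for the 5 transcription factors. WT T-ALL 128 had Cd5, Cd6 and Nr4a1 at ranks 4, 3 and 4, and Nr4a3, Egr1, Egr2, Egr3 and Cd69 at ranks 10 to 14. Its values of Nr4a3, Egr2 and Egr3 rest on about 14, 6 and 4 reads, so the order at the bottom of these genes is not resolved. WT T-ALL 7, 14, 108 and 111 were among the 4 highest for no member.

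**Figure D3:**
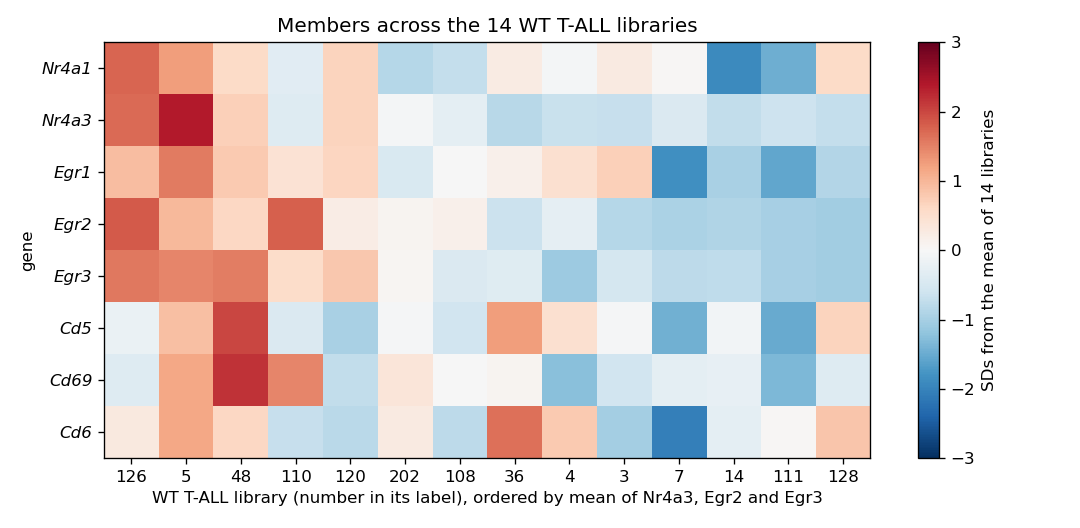
Members (rows) in the 14 WT T-ALL libraries (columns, by the number in their label), as SDs from the gene's mean over the 14 libraries, with columns in order of the mean of Nr4a3, Egr2 and Egr3. The order builds in part of the gradient of these 3 genes. All 5 transcription factors are above their mean in WT T-ALL 126, 5, 48 and 120, libraries such as WT T-ALL 3, 110 and 128 are high in some and low in others, and Cd5 and Cd6 are both high in WT T-ALL 36.

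Over these 14 libraries all 28 pairs of members had a positive Pearson r (0.11 to 0.88, median 0.51), and 11 had an adjusted p under 0.05 over the 28 pairs (two-sided permutation tests with 100000 resamples). The sign of weak pairs was not stable: 2 pairs had a negative rho, 2 a negative r without the 2 farthest libraries, and 5 a negative r within library set B, all of a transcription factor with a surface protein. Of the 10 pairs of transcription factors 9 passed, of the 3 pairs of surface proteins 1 passed, and of the 15 mixed pairs 1 passed (Egr3 with Cd69, r = 0.65, rho = 0.59). Nr4a3 and Egr3 were the closest pair (r = 0.88, p = 8e-05, adjusted p = 0.00224, and rho = 0.75, p = 0.00245, adjusted p = 0.0137). Egr2 and Egr3 had r = 0.83 (p = 4e-04, adjusted p = 0.0056) and rho = 0.86 (p = 0.00017, adjusted p = 0.00476). Cd5 and Cd6, both on chromosome 19, had r = 0.75 (p = 0.00182, adjusted p = 0.017) and rho = 0.77 (p = 0.00157, adjusted p = 0.0137). These 3 pairs were also the ones that passed once the 2 libraries farthest from the median of the first gene were left out (r = 0.87, 0.87 and 0.93). Each of the other 8 had an adjusted p of 0.0596 or more without those libraries. By rho 7 pairs passed.

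Within library set B (10 WT T-ALL libraries) r was 0.89 for Nr4a3 with Egr3, 0.83 for Egr2 with Egr3 and 0.71 for Cd5 with Cd6, with adjusted p-values of 0.0112, 0.031 and 0.0731, and 4 pairs passed, all of transcription factors. Set A held only 4 WT T-ALL libraries, too few for a correlation. Scaled to the T lineage markers 8 pairs passed, all of transcription factors, and r for Cd5 with Cd6 was 0.59 (adjusted p = 0.0614). Cd5 and Cd6 were also the members with the highest r to the T lineage level itself, 0.70 (p = 0.00571, rho = 0.73 with p = 0.00418) and 0.62 (p = 0.0174, rho = 0.62 with p = 0.0214), which fell to 0.49 and 0.48 without the 2 farthest libraries. Among 56 relations of the members with 4 marker scores, sequencing depth, Fos and Jun, 0 passed adjustment by these permutation tests (smallest adjusted p = 0.221 for r). Nr4a1 with Jun shared that smallest value (r = 0.67, p = 0.00788, rho = 0.70 with p = 0.00717, and r = 0.66 without 2 libraries). For Nr4a3, Egr1, Egr2 and Egr3, r with Jun was 0.42, 0.49, 0.45 and 0.57 over the 14 libraries, 0.12, 0.61, 0.23 and 0.31 without the 2 farthest, and 0.69 to 0.73 within library set B.

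**Figure D4:**
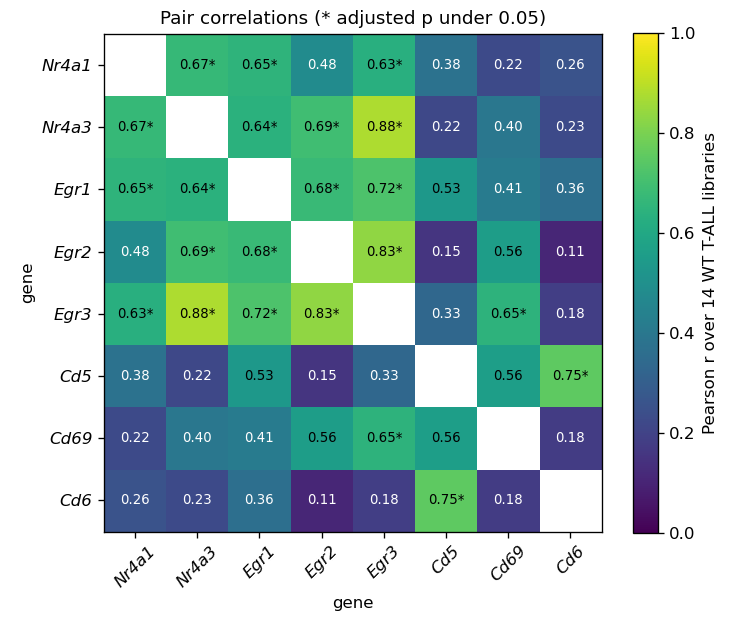
Pearson r between every pair of members over the 14 WT T-ALL libraries (color scale from 0 to 1, value in each cell, * for an adjusted permutation p under 0.05). The block of Nr4a1, Nr4a3, Egr1, Egr2 and Egr3 holds 9 of the 11 starred pairs, and Cd5 with Cd6 (0.75) stands outside it.

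Other genes of the pathway are read against the shares of all genes called lower, 22.3% in WT T-ALL and 16.3% in Notch3 KO T-ALL, and against the all-gene median of 0.08. Of 23 further TCR-induced genes, 21 could be tested in WT T-ALL against thymus, and 13 were called lower, 2 higher (Ikzf2 and Rcan1, named after their values were seen) and 6 were not called, with a median of -0.85. Tnfrsf9, the costimulatory receptor 4-1BB, changed by -1.58 (SE 0.35, adjusted p = 0.000664), Dusp6, an ERK phosphatase that is itself induced by ERK signaling, by -1.57 (SE 0.25, adjusted p = 1.84e-05), and Tnfrsf18 (GITR) and Tnfrsf4 (OX40) by -1.47 and -1.41. In Notch3 KO T-ALL 10 of these 21 were called lower and 1 higher (Spry1, likewise), with Tnfrsf9 at -2.16 and Dusp6 at -1.59. Pdcd1, which encodes PD-1, was not among the genes called (log2 changes of 0.46 and 0.22, adjusted p = 0.118 and 0.648 by limma).

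Of 17 genes of positive selection and maturation, 11 were called lower in WT T-ALL (beside 22.3% of all genes) and 12 in Notch3 KO T-ALL (beside 16.3%), 0 were called higher, and 6 and 5 were not called. Ccr7, the chemokine receptor that leads selected thymocytes to the medulla, changed by -2.61 and -2.92, and S1pr1, the egress receptor that CD69 acts against, by -2.50 and -3.17. Cd69 and S1pr1 were thus both lower in T-ALL. Satb1, a chromatin organizer of thymocytes, changed by -2.38 in WT T-ALL, and Themis, needed for positive selection, by -1.49 and -2.08. Of the signaling proteins next to the TCR, 20 of 21 were listed and tested, and 12 and 11 were called lower (beside the same shares), with 0 higher. Among them, Cd247, the CD3 zeta chain, changed by -1.53 and -1.45, and Rasgrp1, which activates Ras in T cells, by -1.48 and -1.80.

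Among 18 negative regulators and partners of CD5 and CD6, 17 could be tested, and 10 were called lower in WT T-ALL and 9 in Notch3 KO T-ALL, beside 22.3% and 16.3% of all genes (1 higher there, Dok1, named after its values were seen). Dgka, a diacylglycerol kinase that limits Ras activation, changed by -1.78 and -2.30, and Cbl, a ubiquitin ligase, by -1.39 and -1.82. Ptpn6, the phosphatase SHP-1 linked to CD5, did not pass (-0.03 and -0.01, adjusted p = 0.923 and 0.984), nor did Alcam, the ligand of CD6 (0.34 and -0.15, adjusted p = 0.389 and 0.822). In Notch3 KO T-ALL against WT T-ALL limma called 0 genes of each of these 4 lists, and 2, 2, 0 and 1 of them had an unadjusted p under 0.05. The exact permutation test called 0 as well. Several of these genes are expressed in other T cells and in host cells. The T lineage markers all belong to the list of signaling proteins next to the TCR, so their changes are shared by construction. The part of the T lineage and erythroid levels in the changes of these lists was not tested.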

How the data were processed

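RNA was sequenced from 23 samples, each 1 library, as stranded mRNA libraries. By the study's methods, reads were aligned to the mm10 transcriptome with OSA in ArrayStudio and quantified there. The authors deposited log2 values per gene, log2(scaled RPKM + 1), read as such from the values (a minimum of 0 and a 75th percentile of 3.458 to 3.459 in every library), so that changes of low genes are understated. Depth is not given by these values and was estimated from the steps between low values (96.8% of library pairs within 0.05 log2), and read numbers use the longest annotated transcript. A spreadsheet had turned 27 symbols into dates, restored by gene identifier.

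Genes reaching a scaled RPKM of 1 in 3 or more fitted libraries were tested with limma 3.58.1 in R 4.3.3 (eBayes with trend and robust) and adjusted by Benjamini-Hochberg over all genes, at a threshold of 0.05. Both comparisons with thymus used 1 fit of all 3 groups, and the T-ALL groups were compared in a fit of their own. Two-sided exact permutation tests over all genes (38760, 84 and 680 arrangements, smallest p 2.58e-05, 0.0119 and 0.00147) and correlations used Python 3.11.15. The tests were tested on simulated data. The members and lists were chosen with earlier results of these data known. Of each list other than the members, up to 4 genes per comparison were named, those with the largest change among genes called whose group mean reached a scaled RPKM of 5 in either group, and other genes were named for their known link to a member. A gene that this rule names is not reported here. Thymus libraries were alike in pairs (1 with 3, 2 with 4 and 5 with 6) but differed by more than sampling noise. How much separate preparations from 1 animal would differ cannot be read from these data. Whether these are 6 animals is therefore not known, and n = 6 counts libraries. The labels do not say whether the libraries of a group were processed apart, but all Notch3 KO T-ALL libraries were in set A. The p-values measure the spread between these libraries, and a difference between sets or repeats of 1 animal may be part of it. Promoters are from RefSeq, positions from its annotation of GRCm38.p6.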

Additional observations from a re-analysis of the deposited data

How the results depend on the processing

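Leaving out each library in turn gave 7 to 8 members called in WT T-ALL against thymus, 7 to 8 in Notch3 KO T-ALL against thymus and 0 to 1 between the T-ALL groups. Between the T-ALL groups the other alternatives gave 0. Against thymus they gave 7 or 8 (6 of the 6 that passed the filter at a scaled RPKM of 5), with these exceptions. With the erythroid score as a covariate 0 were called in each comparison with thymus, and with the macrophage score 6 and 5. Within library set A 4 and 6 were called, and with thymus pairs averaged 6 and 7. The replicate block is given below. Set terms, sets, the neutrophil score and the averaged pairs were chosen after seeing the data. Of 318, 310 and 242 single changes, 296, 285 and 235 kept their direction and side of the threshold.

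Changes that turned positive were Nr4a1 with the erythroid score against thymus (0.79 and 0.22), and between the T-ALL groups Egr1 with the erythroid score (0.23), the macrophage score (0.15), and leaving out Notch3 KO T-ALL 2 or 3 (-1.06 to 0.42 over the libraries left out, 0.13 without the last), and Cd5 with the erythroid score (0.12) and leaving out Notch3 KO T-ALL 2 (-0.72 to 0.33 over the libraries left out). None of these was called, and the cause was not tested. Of the 28 pairs, 7 passed by Spearman rho, 3 without the 2 farthest libraries and 4 in set B, beside 11.

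A few replicate numbers are shared between groups and do not pair animals. The deviations of same-numbered libraries correlated at -0.24 to 0.15. With the replicate number as a block 6 and 7 members were called against thymus, with Egr1 lost in both (-0.45 and -1.67), and 2926 and 3643 of all genes beside 6150 and 4475. Between the T-ALL groups only number 3 is shared, so no such fit was made, and no comparison of Notch3 KO T-ALL was possible within set B. Between the T-ALL groups, all genes called numbered 72, but 39 and 2 with offsets of 0.1 and 0.01, 134 without a filter, 6 with the filter at 5, 40 scaled to the T lineage markers, 254 with all 3 groups in the fit, 159 with the library set as a term, 9, 25 and 13 with the erythroid score, the macrophage score and within set A, and 3 to 205 with a library left out. Against thymus, all genes called numbered 432 and 29 with the erythroid score, 1709 and 2825 within set A and 3626 and 2875 with thymus pairs averaged. They numbered 3547 in WT T-ALL with the neutrophil score, and in Notch3 KO T-ALL 1759 with the macrophage score and 2859 without Notch3 KO T-ALL 3.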

Other observations

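General immediate early genes, which growth factors, stress and tissue handling also induce, were examined beside the members. Of 18 tested, 8 were called lower and 1 higher in WT T-ALL against thymus, and 7 lower and 1 higher in Notch3 KO T-ALL. Of all genes, 51.6% and 37.5% were called and 22.3% and 16.3% were called lower. The higher gene was Ier3 in both (1.38 and 2.09, named after its values were seen). Fos was low, between 0.81 and 1.22 for thymus, 0.60 and 2.88 for WT T-ALL, and 0.23 and 0.74 for Notch3 KO T-ALL, and was not called (log2 changes of 0.36 and -0.59, adjusted p = 0.345 and 0.315 by limma). Jun ran from 0.97 to 1.58 in thymus and from 0.29 to 4.47 in WT T-ALL, with a change of 0.94 (adjusted p = 0.0697). Jund changed by -2.03 and -2.74, Btg2, an antiproliferative gene, by -1.77 and -1.33, and Zfp36, an mRNA decay factor, by -1.47 and -1.78.

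Over the 14 WT T-ALL libraries, the genes most like each member were sought among 8084 genes by Pearson r, as a description. The closest to Egr1 were Mlec (0.89), Ermp1 (0.87) and Nab2 (0.86), of which Nab2 encodes a corepressor that binds EGR proteins. For Egr3 they were Tmem229b (0.83), Pdcd1 (0.82) and Tmem214 (0.76), for Egr2 Plekho2 (0.87), Tmem214 (0.85) and Rab5b (0.84), and for Nr4a3 Tox (0.83), Lgals3bp (0.81) and Tmem229b (0.80). Tmem229b and Tmem214 thus came up for 2 members each. The closest to Cd5 was Il2ra (0.86), the interleukin-2 receptor alpha chain, followed by Casd1 (0.82) and Polb (0.81). Cd69 was closest to Tgtp1 (0.92), Gbp2 (0.91) and Gimap4 (0.90), of which Tgtp1 and Gbp2 are interferon-induced GTPases. Cd6 was closest to Mapkap1 (0.93), Wdr20 (0.90) and Ace (0.89), and Nr4a1 to Ppp1r10 (0.86), Zc3h10 (0.85) and Cog8 (0.82). The libraries behind these values share their depth and their host cells, and with so many genes searched the highest r is large by selection.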
